A study of Mus musculus with 3 samples.

Results

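The comparison is between pancreatic tumour cells of 1 mouse line that grew in hosts with T and B cells and the same cells that grew in hosts without them. The cells were mT3-2D-GFP, a line of C57BL/6 origin from a KPC tumour (a genetically engineered mouse model of pancreatic cancer) that carries green fluorescent protein (GFP), kept in DMEM with serum before use. The WT tumours grew in C57BL/6 (WT) mice. The SCID tumours grew in B6.CB17-Prkdcscid/SzJ (SCID) mice, whose Prkdc mutation blocks the joining of antigen-receptor genes. Such hosts keep natural killer (NK) cells, macrophages and other myeloid cells. Both groups therefore share the tumour line, its GFP and sorting for GFP, and differ in the host. No source used here states the age or sex of the hosts. RNA of 6 WT tumours and of 5 SCID tumours was pooled in equal amounts within each group, and each pool gave 1 stranded poly(A) library, as did the line. Of the 3 libraries, the comparison uses the 2 tumour pools, and the line serves as a side reference.

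All of the 11886 genes in the authors' deposited table, from 17910 transcripts, enter the comparison. Values below are log2 fold changes of the WT pool against the SCID pool from that table, averaged over the transcripts of a gene, so a positive value means higher in the WT pool and 1 stands for 2-fold. With 1 library a group there is no replicate, no SD, no test and no p-value, and a value describes these 2 libraries. Transcripts of 1 gene spread around its mean with a pooled SD of 0.22, the only spread the table gives, and it is not a spread between animals. The table holds no counts or levels, so no library's own depth is known (the labels state a mean of 40000000 reads a sample, paired, of 75 bases) and a marker cannot be read as present or absent. The sorted cells could be checked only for having values: all 6 epithelial markers (Epcam, Cdh1, Krt7, Krt8, Krt18 and Krt19) did.

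T cells and NK cells that meet their target secrete interferon-gamma. Its receptor works through the kinases JAK1 and JAK2 and leads to binding at gamma-activated sites (GAS) and to the factor IRF1, which in turn binds interferon-stimulated response elements (ISRE). The best known targets are the immunity-related GTPases, the MHC class I molecules that show peptides to CD8+ T cells, the machinery that loads them, and the inhibitory ligand PD-L1. In tumours much of the rest of the RNA of a tissue comes from macrophages and fibroblasts, which a sort for GFP is meant to leave behind.

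Most genes stood close to 0. Of the 11886 genes, 7194 (60.5%) lay within 0.1 of 0, the median was 0.004 and the SD over genes was 0.17. The tails were not alike. In the WT pool 36 genes were higher by 2-fold or more (0.303% of all genes) and 2 were lower (0.0168%), and at 1.5-fold the counts were 131 (1.10%) and 21 (0.177%). A value above 0 was found for 6122 genes (51.5%), so the surplus of high values lies in the tail and not in the bulk of genes. Of the 36 genes, 35 have GC content and transcript length measures, and removing a trend with these kept all 35 past 2-fold. The lowest was at 1.02, whereas neither of the 2 lower genes stayed past 2-fold. Transcripts without these measures drop out under this setting, so a gene mean can also move through a lost transcript.

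**Figure D1:**
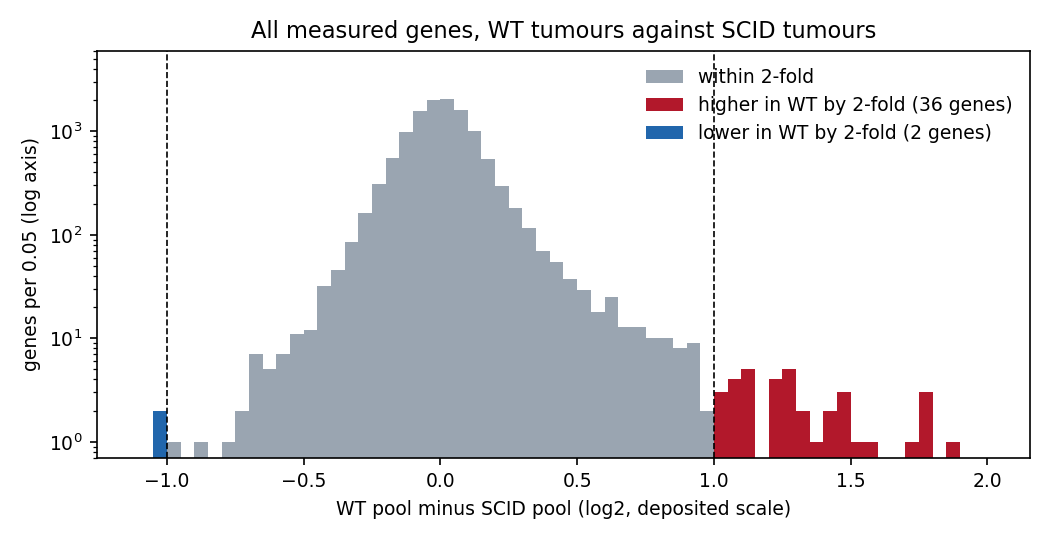
Histogram of the log2 fold change, WT pool against SCID pool, over 11886 genes (x axis, log2; y axis, number of genes on a log scale), with the 2-fold limits marked. The upper tail reaches 1.88 and holds 36 genes past 2-fold, the lower tail ends at -1.02 and holds 2.

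At the upper limit Parp14 (1.03), Ifi30 (1.03) and Bst1 (1.01) lay just inside 2-fold, and H2-Q1 (0.98), Elmo1 (0.96) and Naaa (0.95) just outside it. At the lower limit Ddx3y and Itm2a (both -1.02) were inside and Uty (-0.96) outside. Of the 36 higher genes, 26 belong to at least 1 of the gene lists used below and 10 to none, among them Ccdc88b (2.65-fold), a regulator of T-cell and myeloid-cell maturation, the alpha-arrestin Arrdc4 (1.11), the potassium channel Kcnk6 (1.23) and the heparan sulfate cleaving enzyme Hpse (1.09).

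The interferon-inducible GTPases, which attack the vacuoles of intracellular microbes, were all higher in the WT pool where a value was given. Igtp stood at 1.24, Gbp9 at 1.15, Irgm2 at 0.87 and Irgm1 at 0.62, a median of 1.01 over 4 measured genes of 23 listed. The other 19 had no row. Whether rows were filtered is unstated, and under a filter by level a gene could keep its row through the pool where it is high. This median therefore cannot be weighed against all genes. The limit holds for every list below with members that have no row. Against the cultured line, a library that both values share, Igtp was at 2.13 in the WT pool and 0.89 in the SCID pool, and Irgm2 at 1.91 and 1.04, so both pools lay above culture for these genes. Irgm1 was at 0.46 and -0.16, so only the WT pool lay above culture.

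The 250 bases before the start site of 5 genes of this pathway are shown because their motifs can be read beside these values. They were taken from the RefSeq promoter table of GRCm38.p6, 5′ to 3′ on the strand of the gene, and capitals mark a GAS (TTCNNNGAA) or an ISRE core (GAAANNGAAA), both searched on both strands. Igtp lies at chr11:58199306-58199555 (+), Irgm2 at chr11:58214727-58214976 (+), Irgm1 at chr11:48871421-48871670 (-), B2m at chr2:122147437-122147686 (+) and Irf1 at chr11:53769764-53770013 (+).
Igtp: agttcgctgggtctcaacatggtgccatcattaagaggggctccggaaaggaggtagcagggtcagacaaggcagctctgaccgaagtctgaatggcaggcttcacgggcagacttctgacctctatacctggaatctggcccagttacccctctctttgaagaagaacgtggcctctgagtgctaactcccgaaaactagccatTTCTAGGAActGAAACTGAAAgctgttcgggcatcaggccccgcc
Irgm2: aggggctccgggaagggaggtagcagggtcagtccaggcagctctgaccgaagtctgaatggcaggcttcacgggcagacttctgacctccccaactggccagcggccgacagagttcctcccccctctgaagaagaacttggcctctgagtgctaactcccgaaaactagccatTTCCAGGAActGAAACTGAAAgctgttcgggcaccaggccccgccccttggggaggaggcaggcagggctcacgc
Irgm1: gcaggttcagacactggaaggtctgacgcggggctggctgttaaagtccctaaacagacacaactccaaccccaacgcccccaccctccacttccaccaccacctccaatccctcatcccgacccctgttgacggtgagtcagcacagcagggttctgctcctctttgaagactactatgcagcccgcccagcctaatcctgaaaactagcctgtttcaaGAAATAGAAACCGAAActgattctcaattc
B2m: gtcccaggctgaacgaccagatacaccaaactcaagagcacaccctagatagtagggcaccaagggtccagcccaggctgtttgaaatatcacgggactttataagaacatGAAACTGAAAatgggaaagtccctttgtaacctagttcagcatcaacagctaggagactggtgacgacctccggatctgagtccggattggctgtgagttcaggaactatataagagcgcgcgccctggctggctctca
Irf1: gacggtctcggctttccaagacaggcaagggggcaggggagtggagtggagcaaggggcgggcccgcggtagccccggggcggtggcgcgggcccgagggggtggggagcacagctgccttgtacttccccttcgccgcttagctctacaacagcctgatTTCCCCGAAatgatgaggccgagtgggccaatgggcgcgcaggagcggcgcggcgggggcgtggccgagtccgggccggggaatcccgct
In Igtp a GAS 45 bases before the start is followed by an ISRE core at 34 bases, and in Irgm2 the same pair stands at 75 and 64 bases. These 2 neighbouring promoters share an unbroken run of 55 bases, so their motifs are not separate cases, and reads of the 2 related genes could be split between them. Irgm1 has 2 overlapping ISRE cores at 30 and 24 bases, B2m has 1 at 139 bases, and Irf1 has a GAS at 90 bases. The Irf1 window precedes its transcript at 0.35, and its other transcript, at 1.04, starts farther downstream.

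Both motifs occur together in few promoters. Of 8162 measured genes whose start matched a promoter in the table, 6.22% held a GAS, 2.71% an ISRE core and 0.257% (21 genes) both; over all 32851 windows of the table the shares were 7.02%, 2.98% and 0.332%. Of the 88 genes higher by 1.5-fold that had a promoter, 9 held a GAS, 4 an ISRE core and 3 both. Of the 23 higher by 2-fold, Igtp alone held either motif. A match describes letters in the window and is not a binding site.

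Among the receptors, kinases and factors of the interferon pathway, the factors held the high end. Irf1 stood at 0.70, the mean of 2 transcripts at 1.04 and 0.35. Of 28 measured genes, 2 passed 1.5-fold and 23 were above 0 (1.10% and 51.5% of all genes), with a median of 0.14. The signal brake Socs3 stood at 0.51 and the tyrosine phosphatase Ptpn1 at 0.44, whereas the receptor chains Ifngr1 (0.02) and Ifngr2 (0.13) and the kinases Jak1 (0.02), Jak2 (-0.03) and Tyk2 (-0.01) lay within the spread between transcripts. Against the line, Irf1 was at 1.00 in the WT pool and 0.30 in the SCID pool. Its transcript at 1.04 stood at 0.99 in the WT pool and -0.06 in the SCID pool, and its transcript at 0.35 at 1.01 and 0.66.

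Cytosolic sensors and antiviral effectors gave smaller values. Of 24 measured genes, 21 were above 0 (51.5% of all genes) and the median was 0.16. Samhd1, which depletes the nucleotides a virus needs, was at 0.59, the STING gene Tmem173 at 0.58 and the RNA sensor Ifih1 at 0.56. The membrane tether Bst2 stood at 0.43, Oasl1 at 0.41, Ifit3 at 0.13, Ifit2 at -0.03 and Isg20 at -0.02. With the GC and length trend removed, under which transcripts can drop out, Ifit2 was at 0.31. Ifi27l2a, an interferon-inducible gene outside this list, was at 1.27. Trim21, an antibody receptor in the cytosol, was the lowest at -0.17.

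The PARP family was uneven. Parp14, an ADP-ribosyl transferase of macrophage and interferon responses, was at 1.03. Below it stood Parp12 at 0.46, Parp10 at 0.41 and Parp9 at 0.34. Dtx3l, the ubiquitin ligase that pairs with PARP9 and was listed with the family, was at 0.51. The DNA repair enzyme Parp2 stood at -0.03 and the tankyrases Tnks and Tnks2 at -0.01 and -0.12. The median over all 16 listed genes, Dtx3l among them, was 0.02, and 8 were above 0.

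Every measured gene of the MHC class I list had a value above 0, and 9 of the 10 have a coding transcript. The classical genes H2-K1 (1.21) and H2-D1 (1.10) passed 2-fold, the non-classical genes H2-Q1 (0.98) and H2-T9 (0.78) passed 1.5-fold, and H2-M3 (0.54), H2-T23 (0.53), H2-K2 (0.43), H2-T22 (0.25) and H2-T24 (0.17) were lower in the order, with a median of 0.56 over 10 measured genes of 26 listed. B2m, the light chain of class I molecules and counted in this list, was at 0.58. Neighbours in this order mostly differ by less than 0.22, the spread between transcripts. These genes are close copies of each other and reads could be split between them. As 16 listed genes had no row, the limit given for the GTPases holds here too.

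Set against culture, the 2 pools lay on opposite sides for the 4 heavy chains past 1.5-fold. H2-K1 stood at 0.75 in the WT pool and -0.46 in the SCID pool, and H2-D1 at 0.81 and -0.29. H2-Q1 stood at 0.76 and -0.22, and H2-T9 at 0.36 and -0.42. The SCID value of H2-Q1 lies just within the spread between transcripts. Those of the 2 H2-K1 transcripts were -0.24 and -0.67. B2m did not share this, at 1.35 and 0.77.

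The steps that feed peptides to class I gave no common direction. Tapbp, the tapasin that holds the chain to the peptide transporter, was at 0.59, the immunoproteasome subunit Psmb10 at 0.54 and the trimming enzyme Erap1 at 0.38. The chaperone Canx and the activator subunit Psme2 stood at -0.14, as did the peptidase Lnpep. Of 14 measured genes 7 were above 0, with a median of -0.01.

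MHC class II molecules show peptides to CD4+ T cells and belong to antigen-presenting cells. H2-DMb1, a chain of the class II peptide editor, was at 1.80, the second-highest value of all genes, the lysosomal thiol reductase Ifi30 was at 1.03 and the protease Lgmn at 0.75. The class II transcription factors Rfxap and Rfxank were within 0.01 of 0, and Rfx5 was at 0.12. With the GC and length trend removed Rfx5 was at 0.86. Transcripts can drop out under that setting, and the highest Rfx5 transcript stood at 0.87 before it. The median over 7 measured genes of 19 listed was 0.12, and it was 0.89 over the 4 genes with 1 transcript. None of the 7 is a class II chain that itself shows peptides, so these values do not describe such chains.

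Surface ligands that T and NK cells read were split. Icosl, the ligand of the co-stimulator ICOS, stood at 0.93 and Cd274, which encodes PD-L1, at 0.87, and the adhesion molecule Icam1 at 0.53. The stress ligands of the NK receptor NKG2D did not share one side, with Ulbp1 at 0.35 and Raet1d and Raet1e at -0.21. Raet1a, the PD-L1 relative Cd276 and the don't-eat-me signal Cd47 were within 0.01 of 0. Of 16 measured genes 7 were above 0. Cd274 was at 1.28 in the WT pool and 0.41 in the SCID pool against the line, and Icosl at 1.01 and 0.08.

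**Figure D2:**
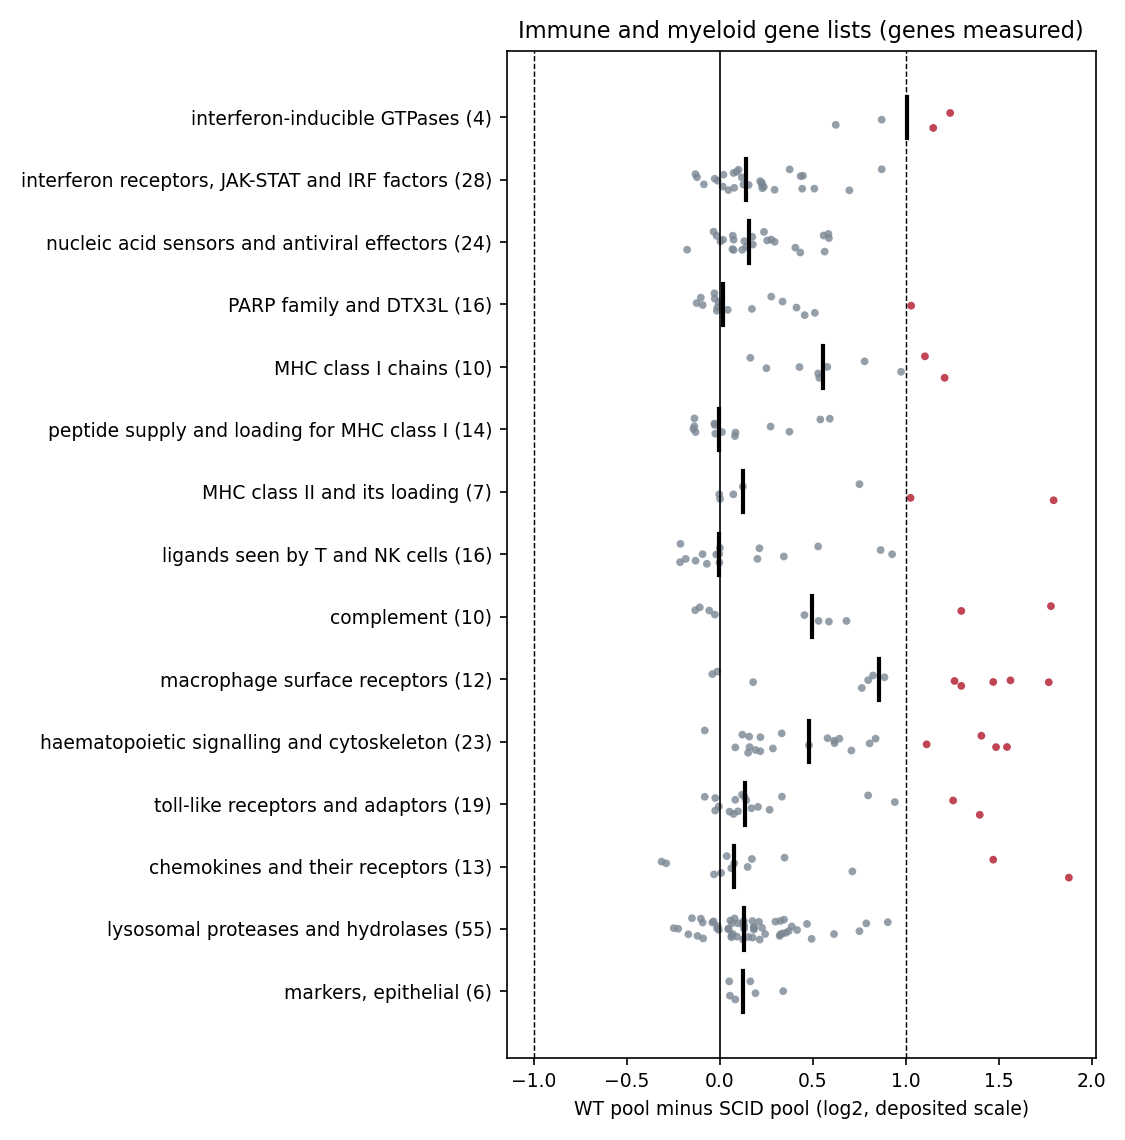
Log2 fold change of the WT pool against the SCID pool (x axis) for each measured gene of the immune lists (rows, with the number measured), points being genes and the bar their median. All 4 GTPases and all 10 genes of the class I list lie to the right of 0, as do 10 of 12 macrophage receptors. Peptide loading and T or NK ligands are split, with 7 of 14 and 7 of 16 above 0.

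Genes that myeloid cells use took many of the highest places. Ccl9, a chemokine of macrophages and osteoclasts, had the highest value at 1.88, a 3.67-fold difference, and was at 2.60 in the WT pool and 0.72 in the SCID pool against the line. Of 50 listed surface receptors of macrophages, 12 had values and 38 had none. Among the 12, 10 were above 0 and 9 passed 1.5-fold (51.5% and 1.10% of all genes), with a median of 0.86. Whether rows were filtered is unstated. Under a filter by level, a gene could keep its row through the pool where it is high. These counts therefore cannot be weighed against all genes. The Fc receptor relative Fcrls stood at 1.77, the nucleotide receptor P2ry6 at 1.56 and the fractalkine receptor Cx3cr1 at 1.47. The anaphylatoxin receptor C3ar1 was at 2.46-fold and the endosomal glycoprotein Cd68 at 1.26. Mertk, a receptor for the uptake of dying cells, was at 0.89 and its bridging ligand Gas6 at 0.81, whereas the related receptors Axl (-0.01) and Tyro3 (-0.04) were near 0.

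Macrophage markers were higher in the same pool as the interferon and MHC genes above. Of 14 markers 5 had values (Cx3cr1, Cd68, Mertk, Mrc1 and Cd14), all of them also members of the receptor list and so not separate from it, and all were above 0, from 0.80 to 1.47 with a median of 0.89. The other 9 markers, among them Adgre1, Csf1r, Lyz2, Itgam and the C1q genes, had no value in the table used, nor had the leukocyte antigen Ptprc. Their part in the results was not tested. In bulk RNA, fewer cells of a type and less RNA per cell cannot be told apart.

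Markers of other leukocytes were near 0 where they had values. For T cells 2 of 10 markers had values, Tcf7 and Foxp3, both at -0.01. For NK cells 1 of 5, Eomes, was at -0.02, and for dendritic cells 1 of 5, Zbtb46, was at -0.07. B-cell and neutrophil markers, 5 each, had none. The endothelial markers Kdr (0.29) and Flt1 (0.03), 2 of 7, and the mesothelial markers Upk3b (0.25), Msln (0.11) and Upk1b (0.06), 3 of 5, were above 0, and the fibroblast marker Col1a1 is given below.

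Of 59 listed intracellular signalling genes of blood cells, 23 had values, and 22 of these were above 0 (51.5% of all genes). The limit on genes without a row, given for the macrophage receptors, holds here too. The adaptor Dok2 stood at 1.54, the integrin activator Fermt3 at 1.49, the Ras-binding protein Rassf2 at 1.41 and the phospholipase Plcg2 at 1.11. The tyrosine kinases Syk (0.84) and Lyn (0.71), the adaptor Dok3 (0.81), the phosphatase Ptpn6 (0.62) and the myeloid factor Cebpa (0.62) also passed 1.5-fold, and Runx1 (-0.08) was the only 1 below 0. The median was 0.48, and the list is made of genes of the cell types counted as markers above. The Ptpn6 value is a mean of 2 transcripts, 1 of them at 0.03 and the other past 2-fold, so it does not describe both.

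Toll-like receptors sense microbial lipids and nucleic acids. Tlr2 was at 2.64-fold, its partner Tlr1 at 0.94 and the co-receptor Cd14 at 0.80, and Unc93b1, which carries the nucleic acid receptors to endosomes, at 1.26. The lipopolysaccharide receptor Tlr4 (0.12), its partner Ly96 (-0.08) and the double-stranded RNA receptor Tlr3 (0.14) were near 0. Of the adaptors and kinases, Myd88 was highest at 0.34. In all 15 of 19 were above 0 (51.5% of all genes), with a median of 0.13. Of 31 listed genes 12 had no row, so the limit given for the GTPases holds here.

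Complement genes covered a wide range, with 6 of 10 measured genes above 0 (51.5% of all genes) and a median of 0.49. Of 31 listed genes 21 had no row, so the limit given for the GTPases holds here. Cfp, the properdin that stabilises the alternative pathway convertase, was at 1.78, C4a at 0.68, the protease C1ra at 0.59, C1rl at 0.53 and factor B, Cfb, at 0.46. The regulators Cd55 (-0.06), Clu (-0.11) and Cr1l (-0.13) were below 0 but within the spread between transcripts. With the GC and length trend removed they stood at 0.05, -0.15 and -0.34. Cfp was at 2.71 in the WT pool and 0.93 in the SCID pool against the line.

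Few other secreted signals differed. Of 13 measured chemokines and receptors, Cxcl16 (0.71) was the next after Ccl9 and Cx3cr1, and Cxcl5, a neutrophil attractant, stood at 0.17 and Ccl20 at -0.29. Among 50 cytokines, growth factors and receptors the median was 0.02. The GM-CSF receptor chain Csf2ra (1.32), Tnf (0.65) and its receptor Tnfrsf1b (0.61) passed 1.5-fold, whereas the ligand Csf2 was at -0.37 and the alarmin Il33 at -0.39. The NF-kB list was above 0 in 21 of 27 (51.5% of all genes), with Rel at 0.49 and the kinase Chuk lowest at -0.42. The atypical inhibitor Nfkbid, outside this list, was at 1.07.

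Lysosomal, lipid and metal genes completed the high values. Of 55 lysosomal genes 42 were above 0 (51.5% of all genes), with a median of 0.13. They were led by the ganglioside activator Gm2a (0.90), the hexosaminidase Hexa (0.79) and the nuclease Dnase2a (0.62), and the cathepsin Ctsf was lowest at -0.25. In lipid transport Apoe (1.75) and the lipase Lpl (1.26) passed 2-fold, and Mttp, which loads lipid onto apolipoprotein B, was the lowest of 21 at -0.69. Arg1, the arginase that splits arginine to ornithine, was at 2.83-fold, yet the other 17 measured genes of arginine and polyamine use lay between -0.21 and 0.13. Hfe, a class I-like regulator of iron uptake, was at 1.15 and the haem oxygenase Hmox1 at 0.50, with 13 of 20 iron and haem genes above 0.

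The higher genes stood differently against culture. For 28 of the 36 both pools lay above the line and the WT pool farther, as for Apoe (2.77 and 1.02), Fermt3 (2.20 and 0.72) and Parp14 (2.36 and 1.33). Among these are genes with the SCID pool within 0.22 of the line, such as P2ry6 (1.74 and 0.18) and Bst1 (1.14 and 0.13). For the other 8 the pools lay on opposite sides of it, as for Lpl (0.48 and -0.78), Zfp949 (0.52 and -0.57) and Hpse (0.68 and -0.41). Among these 8, the SCID pool was within 0.22 of the line for C3ar1 (-0.10) and Tnfrsf11a (-0.14). The side on which it lay is therefore not settled for them. All 3 comparisons share libraries, so these pairs are read side by side only.

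**Figure D3:**
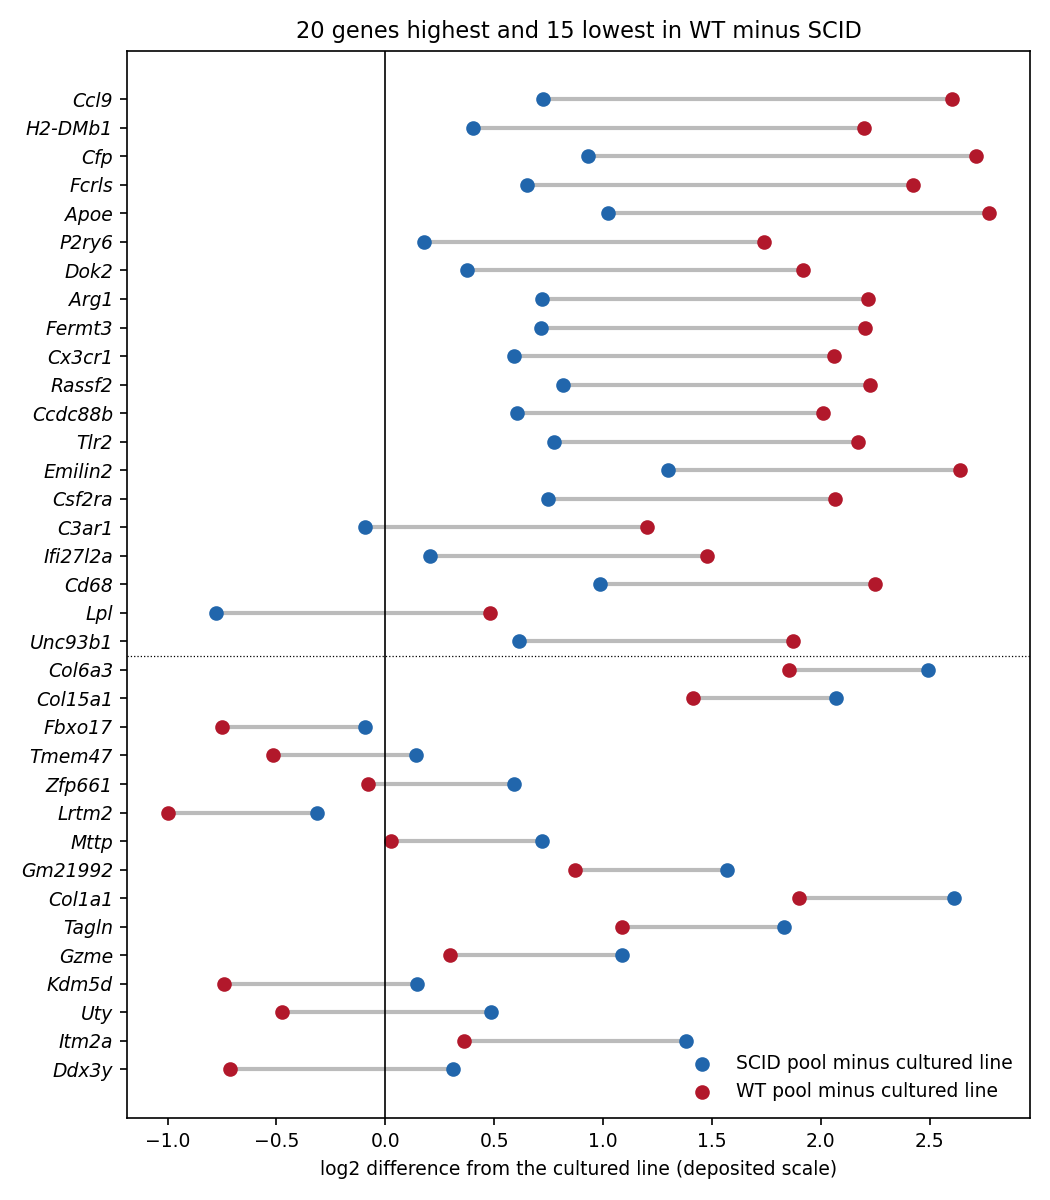
Log2 difference from the cultured line (x axis) in the WT pool (red) and in the SCID pool (blue) for the 20 genes highest and the 15 lowest in the WT pool against the SCID pool (rows), with a grey line joining the pair. Apoe reaches 2.77 in the WT pool against 1.02 in the SCID pool, and Col1a1, among the lowest genes, is at 1.90 and 2.61.

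In the lower tail the Y-linked genes stood together. Ddx3y, an RNA helicase, was at -1.02, the histone demethylases Uty and Kdm5d were at -0.96 and -0.89, and no other of 9 listed Y-linked genes had a value. Against the line they were below 0 in the WT pool (-0.71, -0.47 and -0.74 in that order) and above 0 in the SCID pool (0.31, 0.48 and 0.15). Their X-linked partners were nearer 0: Ddx3x stood at -0.13, Kdm6a at -0.10 and Kdm5c at 0.02, and the median over 7 was -0.10. No sex of the hosts is stated, and its part was not tested.

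Itm2a, a membrane protein of the X chromosome known from cartilage and T-cell development, was at -1.02, and was at 0.36 in the WT pool and 1.38 in the SCID pool against the line. Gzme, a granzyme of NK and activated T cells, was at -0.79 (0.30 and 1.09 against the line), Klra18, an NK receptor of the Ly49 family, at -0.55 and Mcpt8, a basophil protease, at -0.53. The other 5 measured granzymes and inhibitors lay between -0.07 and 0.13. Klra2, also of the Ly49 family, went the other way, at 0.63. Ly49 and granzyme genes are multigene families, and reads could be split between members.

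Genes of the fibrous matrix filled further places at the low end. Col1a1, a chain of type I collagen, was at -0.71, Col15a1 at -0.66, Col6a3 at -0.64 and Col5a1 at -0.58, with Col6a2 (-0.36) and Col6a1 (-0.34) after them. The basement membrane chains Col4a1 (-0.02) and Col4a2 (0.03), the anchoring collagen Col7a1 (0.02) and Col18a1 (0.26) did not share this. The median over 16 measured collagens was -0.14, and 10 were below 0.

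Both pools stood far above culture for these chains, with Col1a1 at 1.90 in the WT pool and 2.61 in the SCID pool, and Col6a3 at 1.85 and 2.49. Col1a1 was the only 1 of 10 fibroblast markers with a value, and the remaining 9, such as Dcn, Lum, Pdgfra and Thy1, had none. The part of fibroblast RNA in these values was not tested.

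The collagen chaperone Serpinh1 was at -0.28 and the crosslinking hydroxylase Plod2 at -0.28, and 14 of 21 collagen-processing genes were below 0, with a median of -0.08 (-0.03 over genes with 1 transcript and -0.12 with the GC and length trend removed). Among matrix glycoproteins the collagen-binding Sparc (-0.54) and the proteoglycan Vcan (-0.42) were lowest, fibronectin, Fn1, was within 0.01 of 0 and the elastin-interface protein Emilin2 was highest at 1.34. The contractile genes Tagln (-0.75) and Tpm2 (-0.60) passed 1.5-fold, and the other 27 measured contractile and actin-binding genes lay between -0.28 and 0.17. Proteases had both ends: Adam8, a leukocyte metalloprotease, stood at 0.78 and Mmp19 at 0.62, whereas Adamts12 was at -0.49. The mesenchymal factors did not share one side: Snai2 was at -0.47 and Zeb2 had a gene mean of 0.52. With the GC and length trend removed, under which transcripts can drop out, Zeb2 was at 0.78.

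Tumour-cell programmes gave small values that leaned to 1 side. Epithelial junction and keratin genes were above 0 in 30 of 40, with a median of 0.09, led by the protease inhibitor Spint1 (0.71), Krt14 (0.53) and the protease St14 (0.42), and Epcam was at 0.34. Mitosis genes were above 0 in 29 of 34 (median 0.10, Mki67 at 0.18) and replication genes in 32 of 40 (median 0.06). Hypoxia genes were below 0 in 23 of 29 (median -0.09), with Ero1l (-0.29) and Bnip3l (-0.28) lowest. Over all genes 51.5% were above 0, with a median of 0.004. No member of these 4 lists passed 2-fold.

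Immediate-early genes, which dissociation and sorting can induce, gave small values that leaned below 0, in 18 of 27. The median was -0.09, or -0.12 with the GC and length trend removed, and 51.5% of all genes were above 0. The part of handling in these values was not tested. Fos stood at -0.16, Jun at -0.22, Egr1 at -0.23 and Atf3 at -0.27, and the heat-shock gene Hspa1a at 0.36. In both pools they were far above the line, as Fos at 1.89 and 2.05. Of the death genes, the necroptosis kinase Ripk3 was at 0.78 (0.22 and -0.56 against the line) and its effector Mlkl at 0.28, with the inflammasome adaptor Pycard at 0.44. The gene that carries the host mutation, Prkdc, was at -0.02 in these sorted cells, Trp53 was at 0.06 and Myc at -0.10.

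**Figure D4:**
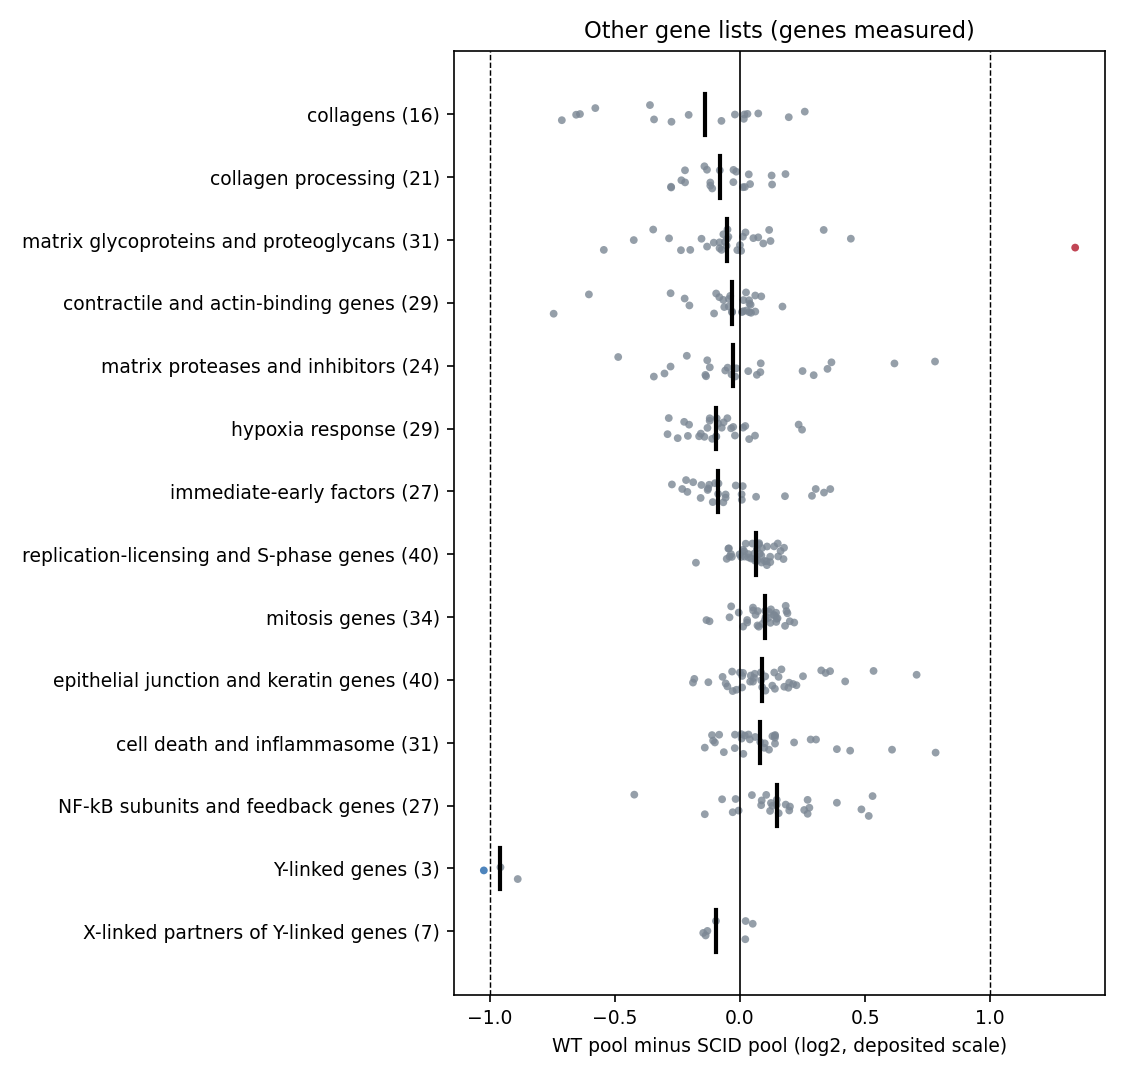
Log2 fold change of the WT pool against the SCID pool (x axis) for each measured gene of the matrix, growth, stress and sex-linked lists (rows, with the number measured), points being genes and the bar their median. The 3 Y-linked genes lie between -1.02 and -0.89, collagens reach -0.71, and cell-cycle genes lie near 0.

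By chromosome, medians ran from -0.05 on X (353 genes) to 0.04 on chromosome 2, apart from the 3 genes of Y. Chromosome 17, which holds the mouse MHC, had 15 of 636 genes higher by 1.5-fold (2.36%, against 1.10% over all genes), and 6 of the 15 were H2 genes or Tapbp. Chromosome 8 had nearly the same share, 14 of 646 (2.17%).

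Values of single transcripts show how far a gene mean can be trusted. Of 3598 genes with more than 1 transcript, the median gap between the highest and the lowest was 0.22, and 66 genes (1.83%) had a gap of 1 or more. In 10 genes 1 transcript was higher and another lower by 1.5-fold. The widest gaps were in Ndufv2, a subunit of respiratory complex I, with 0.83 and -1.11, and in Zeb2, a repressor of epithelial genes, whose 5 transcripts ran from -0.37 to 1.32. Etfrf1 (0.48 and -1.14), Frmd4b (1.31 and -0.11) and the class II factor Rfx5 (0.87 to -0.50) also had transcripts on both sides of 0, and their gene means lie between them.

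Of the 36 genes higher by 2-fold, 34 had 1 transcript, so this check could not be made for them. The other 2 had close values for their transcripts, Dab2, an endocytic adaptor, at 1.25 and 1.23 and H2-K1 at 1.24 and 1.18. By single transcripts 45 genes had at least 1 value past 2-fold, and 9 of these had a gene mean under it.

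**Figure D5:**
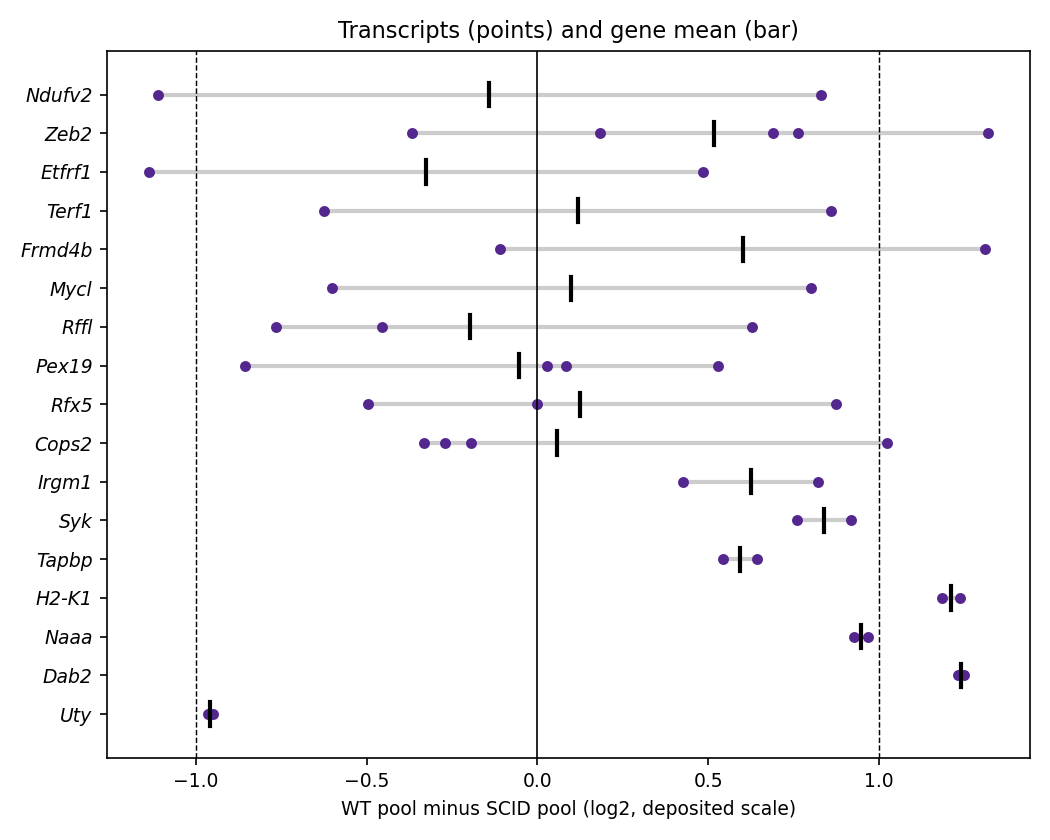
Log2 fold change of the WT pool against the SCID pool (x axis) for single transcripts (points) of genes with more than 1 transcript (rows), with the gene mean marked. Ndufv2 spans -1.11 to 0.83, whereas the transcripts of H2-K1 and Dab2 nearly coincide.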

How the data were processed

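Polyadenylated RNA of GFP-positive cells was measured in 1 pooled library a group. The authors deposited a log2 fold change per RefSeq transcript for each pair of libraries. The header names no log base. Base 2 was taken from DESeq2 1.20.0, listed in the submitters' processing notes with BWA, Partek, R 3.5.1 and mm9, without roles. Whether values were shrunk or rows filtered is unstated. The column named for SCID alone equals SCID against the line minus WT against the line in every transcript, so its sign was reversed. Start sites matched GRCm38 in 87.0% of 14216 transcripts, although the notes name mm9, and promoters came from RefSeq for GRCm38.p6.

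A gene was the mean over its transcripts. Calls used 2-fold (log2 of 1), and with 1 library a group no test was made. The genes and gene lists were chosen with earlier results of these data known. Named were the 20 highest and 15 lowest genes, list members past 2-fold, the 3 highest and 3 lowest of each list, the 10 widest transcript gaps and 8 set genes. Other names, families sharing a symbol stem and corrected list symbols were chosen after values were seen. Alternatives were the median transcript, coding transcripts, genes with 1 transcript, centring, a GC and length trend (16697 transcripts, 93.2%, 7.01% of the variance) and a 1.5-fold threshold. Python 3.11.15, numpy 2.4.6, pandas 2.3.3 and matplotlib 3.10.9 were used, and the scripts were tested on simulated data. Some genes that the rule names are not reported here.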

Additional observations from a re-analysis of the deposited data

How the results depend on the processing

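Genes higher in the WT pool by 2-fold stayed within 1.5 times the count of 36 under 5 alternatives, and at a 1.5-fold threshold they numbered 131. Genes lower by 2-fold numbered 21 at 1.5-fold and 0 with the GC and length trend removed, against 2. The median of the MHC class II list, 0.12, was 0.89 over genes with 1 transcript. It was 0.39 over the 6 genes left with the trend removed. Removing the trend leaves out transcripts without GC and length measures, so moves under it, also of single genes, can come from lost transcripts. The other 230 list medians moved by less than 0.22, the spread between transcripts, which is wide for a median: that of collagen processing ran from -0.03 to -0.12, that of the X-linked partners reached -0.02 with the trend removed (-0.10 in the report) and that of epithelial genes 0.13 over genes with 1 transcript (0.09). Over 834 list members and other extreme genes, 10 of 3881 recomputed values, in 10 genes and none of them past 2-fold, moved by 0.22 or more, among them Rfx5 (0.86 against 0.12) and Ifit2 (0.31 against -0.03) with the trend removed. Medians within 0.02 of 0 crossed it under at least 1 alternative for peptide loading, T and NK ligands, granzymes, cytokines, the host and driver genes and the Rab family, so no direction is given for these. No paired analysis was possible because each group had 1 library and no test was made, and no library could be left out. Depth limits cannot be stated without counts.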

Other observations

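Families that share a symbol stem gave values outside the lists above, all from the authors' deposited table as WT pool against SCID pool. All 13 measured small nucleolar RNA genes were below 0, with a median of -0.26 (Snora74a at -0.63), and with the GC and length trend removed the median was -0.20 and 1 was above 0. Of the 12 host genes of such RNAs named Snhg, 10 were below 0, with a median of -0.12. Zinc finger genes with the stem Zfp were below 0 in 243 of 327 (median -0.07, or -0.04 with the trend removed), although Zfp949 was at 1.09 and Zfp661 at -0.67. Histone genes were below 0 in 50 of 67 (median -0.06). Ribosomal protein genes were below 0 in 49 of 82 (median -0.02) and mitochondrial ribosomal protein genes above 0 in 55 of 78 (median 0.03). Over all genes 51.5% were above 0. The libraries were made from poly(A) RNA, so values of small nucleolar RNA and histone genes may rest on few or indirect reads. Without counts this could not be checked.

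Rab GTPases, which direct vesicle traffic, had 4 of 45 members past 1.5-fold: Rab20 at 0.89, Rab32 at 0.66, Rab7b at 0.65 and Rab8b at 0.64, all known from phagosomes and late endosomes, with 23 of 45 above 0. Over all genes 1.10% passed 1.5-fold and 51.5% were above 0, so the share of Rab genes above 0 is close to that of all genes. Proton pump subunits were above 0 in 11 of 16 (median 0.03). Of 611 genes with non-coding transcripts only, 269 were above 0 (median -0.02).

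The authors' deposited table has 16 symbols that are numbers of the kind a spreadsheet makes from gene names that read as dates. Through their transcripts they belong to 17 RefSeq genes, 8 of the MARCH ubiquitin ligase family, 8 septins and Mtarc2. The symbol 43161 pools transcripts of Marchf2 and Mtarc2. The symbol 43162 stands for Marchf3, at 0.67, which a search by gene name would miss. Marchf8, a ligase that removes MHC class II from the surface, is also listed under such a number, at 0.07.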
